A study of Mus musculus with 3 samples.

Results

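Alpha and beta tubulins were followed through the differentiation of 3T3-L1 cells, a mouse line of fat cell precursors that becomes lipid-storing when induced with hormones. Gene expression was measured at time points labelled 2, 8 and 20 days, with 1 Agilent 1-colour array of total RNA per day, 3 arrays in all. The labels name no treatment that separates the days other than time in culture, and the day 2 cells are themselves labelled as adipocytes just after differentiation. The study asked which expression changes accompany adipocyte hypertrophy, the enlargement of fat cells. The 10 genes were chosen by name, 4 alpha tubulins (Tuba1a, Tuba1b, Tuba1c and Tuba4a) and 6 beta tubulins (Tubb2a, Tubb2b, Tubb3, Tubb4b, Tubb5 and Tubb6). They carried 12 of the 26581 probes, and were 10 of the 20144 genes, that could be named through a RefSeq accession. Further alpha and beta tubulins on the array are not among these members and are given in a separate list.

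Alpha and beta tubulin form the dimer from which microtubules polymerise, and every cell makes several isotypes of each from separate genes. The isotypes are close in coding sequence, differ most at their acidic carboxyl ends, and are expressed in tissue-dependent mixtures. Tubulin mRNA is also under autoregulation: unpolymerised dimers speed the decay of tubulin mRNAs as they are translated. Microtubules form the mitotic spindle of dividing cells. In fat cells they also serve as tracks for vesicles of the insulin-responsive glucose transporter and for lipid droplets, and the cytoskeleton is rearranged as a spindle-shaped preadipocyte rounds up.

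With 1 array per day there is no test of any difference and no p-value. A level is log2 of the processed spot intensity minus the 75th percentile of all non-control probes on that array, so 0 is that percentile. A difference is the later day minus the earlier. Its error is a technical SD that holds the spread between spots of one array, and not the spread between cultures. A gene was measured between 2 days when its probe was well above background on both, by the mark the scanning software sets, and 2-fold was the size used for counting. Probes of different genes bind with different strength, so levels are compared between days and not between genes. The arrays held 43020 non-control spots each, of which 55.3% to 56.9% were well above background and 0 were saturated. All 3 lay on 1 slide. All 10 adipocyte markers examined, among them Adipoq (adiponectin) and Pparg (the master regulator of adipogenesis), were well above background on every array, day 2 included.

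Between day 2 and day 8 most tubulin transcripts were lower, and between day 8 and day 20 most were slightly higher. Of the 8 members measured on days 8 and 2, 5 had a signal lower by 2-fold or more on day 8 (Tuba1b, Tuba1c, Tuba4a, Tubb2a and Tubb6), and 0 a signal higher by as much. Over all 12045 genes measured on those days, 12.9% were lower and 13.8% higher by that size. The median log2 difference of the measured members was -1.08, beside -0.06 for all measured genes. Tuba1a stood on the other side of 0, and Tubb2b was detected on the later arrays but not on day 2. Tubb3 was not well above background on any array. In bulk RNA, fewer cells of a type and less RNA per cell cannot be told apart. The counts of 2-fold lower members depend on the scaling: they were 3 after quantile normalization or cyclic loess, where Tuba1b and Tuba4a lay just under 2-fold.

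**Figure D1:**
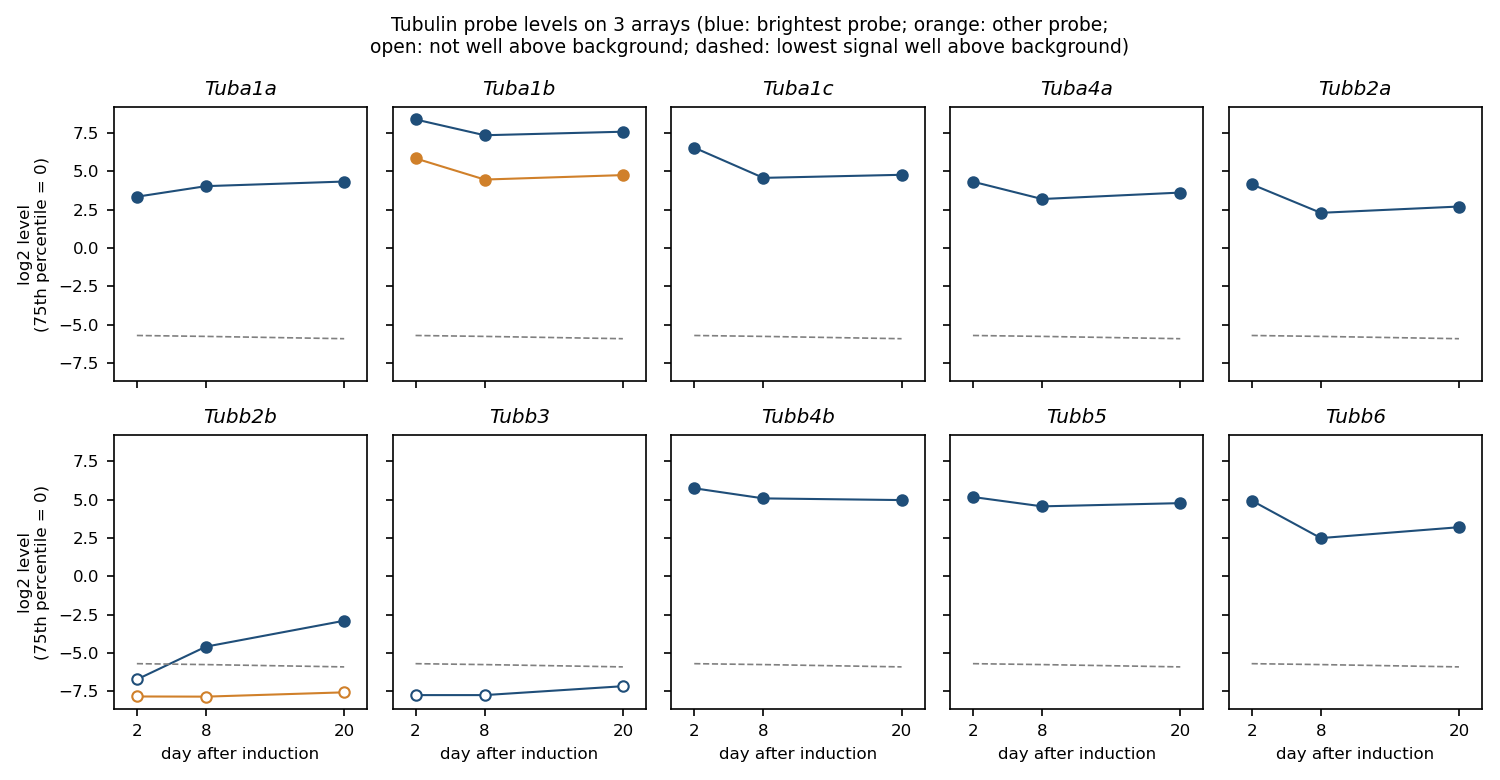
Levels of the 12 tubulin probes by day. The x axis, titled day after induction, gives the labelled time point in days. Whether the labels count from induction was not checked. The y axis gives the log2 level, with 0 at the array's 75th percentile. Filled points were well above background, open points were not, and the dashed line is the lowest signal well above background on each array. Tubb6, Tuba1c and Tubb2a dip most on day 8, Tuba1a is highest on day 20, and Tubb2b leaves the background on day 8.

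Among the alpha tubulins, Tuba1b, the alpha isotype found in nearly all tissues, had log2 levels of 8.39 on day 2, 7.36 on day 8 and 7.59 on day 20. The unscaled processed intensities were 221913, 104753 and 178663 on days 2, 8 and 20. Its day 8 level was thus the lowest of the 3, with day 20 in between. The day 8 minus day 2 difference was -1.02 (technical SD 0.067), a 2.03-fold lower signal. The other Tuba1b probe had levels of 5.85, 4.47 and 4.76 on days 2, 8 and 20 and gave the same order of days, with a somewhat larger difference of -1.38 (technical SD 0.066) between days 8 and 2.

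Tuba1c, a second broadly expressed alpha isotype of the same chromosomal cluster, had levels of 6.55, 4.58 and 4.78 on days 2, 8 and 20. It was 3.92-fold lower on day 8 than on day 2 (-1.97, technical SD 0.066), and 3.3% of measured genes had a lower difference. Most of that gap remained on day 20, when Tuba1c was still 3.42-fold below day 2 (-1.77). Tuba4a, an alpha tubulin made without the terminal tyrosine that others carry, had levels of 4.33, 3.20 and 3.62. Its difference was -1.13 (technical SD 0.068) between days 8 and 2 and 0.41 (0.071) between days 20 and 8, so on day 20 it lay 1.65-fold below day 2.

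Tuba1a, best known as the main alpha tubulin of developing neurons, ran against the other 3 alpha members. Its levels were 3.35, 4.04 and 4.34 on days 2, 8 and 20, highest on day 20. It was 1.61-fold higher on day 8 than on day 2 (0.69, technical SD 0.072) and 1.23-fold higher on day 20 than on day 8 (0.30, 0.073). Together these put it 1.99-fold above day 2 on day 20 (0.99), just short of 2-fold. It passed 2-fold in 4 of 10 alternative settings. These were array medians (1.09), quantile normalization (1.34), cyclic loess (1.4) and spike-in scaling (1.68). The other settings, which left the scaling nearly as reported, gave 0.93 to 0.99. Subtracting one gene's difference from another's removes any single factor shared by a whole array. On that measure Tuba1a moved apart from Tuba1b by 1.72 (technical SD 0.098) and from Tuba1c by 2.66 (0.097) between days 8 and 2. Between days 20 and 8 the same contrasts were 0.08 (0.105) and 0.10 (0.104), within 1 technical SD of 0. The contrast with Tuba1b turned to -0.24 with quantile normalization and -0.22 with cyclic loess. Which transcripts the alpha tubulin probes bind was not examined. Signal shared between these paralogues cannot be told apart.

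Tuba1b and Tuba1a are direct neighbours in the RefSeq annotation on chromosome 15, and 4 other annotated genes separate Tuba1a from Tuba1c. The 250 bases before the annotated starts of these 3 genes are shown because neighbouring genes of one cluster gave opposite differences. They are RefSeq sequences of build GRCm38.p6, printed on the strand of the gene. Capitals mark every match, on either strand, to CCAAT (the box bound by NF-Y), TATAAA (the TATA box), TTTGAA and TTTAAA (forms of the cell cycle homology element) and GGGCGG (the GC box bound by Sp1 family factors). No marked matches overlap in the sequences shown.
Tuba1a, chr15:98953502-98953751, minus strand: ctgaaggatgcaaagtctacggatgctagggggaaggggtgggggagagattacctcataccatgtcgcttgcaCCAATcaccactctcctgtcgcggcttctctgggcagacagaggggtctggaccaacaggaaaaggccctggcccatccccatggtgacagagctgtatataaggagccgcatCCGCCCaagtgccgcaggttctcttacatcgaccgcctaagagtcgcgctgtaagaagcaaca
Tuba1b, chr15:98934391-98934640, minus strand: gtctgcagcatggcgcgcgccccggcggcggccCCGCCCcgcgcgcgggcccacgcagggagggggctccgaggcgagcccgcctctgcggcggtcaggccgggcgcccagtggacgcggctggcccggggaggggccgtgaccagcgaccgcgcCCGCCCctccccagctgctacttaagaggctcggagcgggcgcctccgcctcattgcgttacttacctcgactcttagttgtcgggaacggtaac
Tuba1c, chr15:99029641-99029890, plus strand: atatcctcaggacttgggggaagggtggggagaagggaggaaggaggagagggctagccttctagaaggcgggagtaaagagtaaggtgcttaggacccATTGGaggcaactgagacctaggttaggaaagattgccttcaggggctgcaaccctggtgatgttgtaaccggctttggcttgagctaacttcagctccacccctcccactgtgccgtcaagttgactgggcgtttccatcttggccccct
Tuba1a and Tuba1c each held 1 CCAAT match and Tuba1b held 0, while Tuba1b held 2 GGGCGG matches, Tuba1a 1 and Tuba1c 0. None of the 3 windows held TTTGAA or TTTAAA. The windows also differed in base composition, with 75.6% G and C in Tuba1b against 56.8% in Tuba1a and 55.6% in Tuba1c. These letters are a description of the windows and say nothing of which factors were bound.

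All 4 beta tubulin members measured on days 8 and 2 were lower on day 8, with a median of -1.26 and a range of -2.45 to -0.61. Tubb6, a class of beta tubulin expressed at varying levels outside the nervous system, had the largest difference of the 8 members measured on days 8 and 2. Its levels were 4.94, 2.49 and 3.20 on days 2, 8 and 20. It was 5.48-fold lower on day 8 than on day 2 (-2.45, technical SD 0.069), and 2.1% of measured genes had a lower difference. On day 20 it was 1.64-fold above day 8 (0.71, 0.074) and 3.35-fold below day 2 (-1.74).

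Tubb2a, a beta isotype abundant in brain and present in many other tissues, had levels of 4.16, 2.30 and 2.71 on days 2, 8 and 20. It was 3.63-fold lower on day 8 than on day 2 (-1.86, technical SD 0.073). It was 1.33-fold higher on day 20 than on day 8 (0.41, 0.077) and remained 2.74-fold below day 2. Tubb2a thus showed the same dip on day 8 and partial return on day 20 as Tubb6.

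The most widely used beta isotypes differed less. Tubb5, the mouse counterpart of the common human beta tubulin TUBB, had levels of 5.17, 4.56 and 4.77 on days 2, 8 and 20, a difference of -0.61 (technical SD 0.066) between days 8 and 2. Tubb4b, a ubiquitous isotype also found in cilia, had levels of 5.74, 5.08 and 4.97, a difference of -0.67 (0.066) between the same days. Both were under 2-fold. The Tubb6 difference minus that of Tubb5 was -1.84 (technical SD 0.096) for days 8 and 2. On these arrays their probes thus did not move by a common factor, and the spread between cultures was not measured. For days 20 and 8 Tubb5 was at 0.21 (0.074), and Tubb4b was the only measured member below 0, at -0.11 (0.074). That sign turned in 4 of 10 alternative settings. These were array medians (0.09), quantile normalization (0.16), cyclic loess (0.22) and spike-in scaling (0.55).

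Tubb2b, a close paralogue of Tubb2a known from migrating neurons, was the exception among the beta genes. Its brighter probe gave unscaled processed intensities of 6.24 on day 2, 26.4 on day 8 and 124.0 on day 20, with scaled log2 levels of -6.73, -4.59 and -2.90. The day 2 spot was not well above background, and the day 8 spot was 2.3 times the lowest signal that was. Against the lowest signal well above background on day 2, Tubb2b was higher by at least 2.15-fold on day 8 and 6.93-fold on day 20. These limits carry no technical SD and are given for the reported scaling alone. On the measured pair of days Tubb2b was 3.22-fold higher on day 20 than on day 8 (1.68, technical SD 0.176). That difference was 0.46 with normexp background correction and an offset of 50, which shrinks dim spots.

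The other Tubb2b probe was not well above background on any array, at levels of -7.84, -7.85 and -7.57 on days 2, 8 and 20, so the higher signal of the brighter probe has no second probe behind it. Tubb2a and Tubb2b lie close together on chromosome 13, with 1 annotated gene between them, and their transcripts are near-identical over the coding part. Which transcripts each probe binds was not examined here, and signal shared between such paralogues cannot be told apart. The Tubb2b difference minus that of Tubb2a was 1.28 (technical SD 0.192) for days 20 and 8, and 0.01 with normexp.

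Tubb3, the beta isotype used as a marker of neurons, was not well above background on any of the 3 arrays, with log2 levels of -7.75, -7.75 and -7.17. Neuron markers were examined beside the neuron-associated isotypes. Of 13, 7 were well above background on day 2, 8 on day 8 and 6 on day 20. Of all 20144 named genes, 12491, 12837 and 12575 were well above background on those days. The log2 summed levels of the neuron markers were 2.89, 3.50 and 3.28, in which the brightest probes weigh most. The median log2 levels of the list were -5.27, -5.54 and -6.12. Rbfox3, Syt1, Nefl, Nefm and Stmn2 were not well above background on any array. Map2, Syp, Snap25, Eno2, Elavl3 and Elavl4 were well above it on all 3 arrays, Dcx on days 2 and 8, and Nefh on day 8 alone. Between days 8 and 2, 7 of the 13 were measured, with a median of 0.26, and 1 was at least 2-fold higher and 0 lower. Over all genes measured on those days, 13.8% were higher by that size and 12.9% lower. The higher marker was Eno2, an enolase used as a neuron marker, at 5.93, with a dim probe on day 2 (level -4.6). On day 20 Map2 (1.98) and Eno2 were at least 2-fold above day 8 and Snap25, a vesicle fusion protein, was below it (-1.22). Their part in the Tuba1a and Tubb2b values was not tested.

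The 250 bases before the start are shown for Tubb2a, whose signal was at least 2-fold lower on day 8, and for Tubb4b, whose signal was not, with the same marks, source and build as for the alpha genes.
Tubb2a, chr13:34078009-34078258, minus strand: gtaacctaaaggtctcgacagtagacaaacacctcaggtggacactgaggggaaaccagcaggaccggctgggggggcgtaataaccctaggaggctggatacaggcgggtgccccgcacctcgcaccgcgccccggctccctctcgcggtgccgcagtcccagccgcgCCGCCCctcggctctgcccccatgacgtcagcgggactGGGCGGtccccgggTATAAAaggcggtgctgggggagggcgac
Tubb4b, chr2:25224703-25224952, minus strand: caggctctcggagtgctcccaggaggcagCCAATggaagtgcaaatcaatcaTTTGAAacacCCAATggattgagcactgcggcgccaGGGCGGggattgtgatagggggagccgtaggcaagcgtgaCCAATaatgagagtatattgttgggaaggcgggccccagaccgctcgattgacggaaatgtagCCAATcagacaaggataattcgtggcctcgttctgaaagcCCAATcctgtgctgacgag
Tubb2a held the only TATAAA match among the members, with 2 GGGCGG matches, whereas Tubb4b held 5 CCAAT matches, 1 TTTGAA and 1 GGGCGG. Windows were at hand for 8 members, all but Tubb2b and Tubb6. Of these 8, 5 held CCAAT, against 33.8% of all 32851 windows in the table, and 6 held GGGCGG, against 32.7%. TATAAA stood in 1 of the 8 (12.4% of all windows), TTTGAA in 1 (16.0%) and TTTAAA in 1, that of Tuba4a (12.1%).

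**Figure D2:**
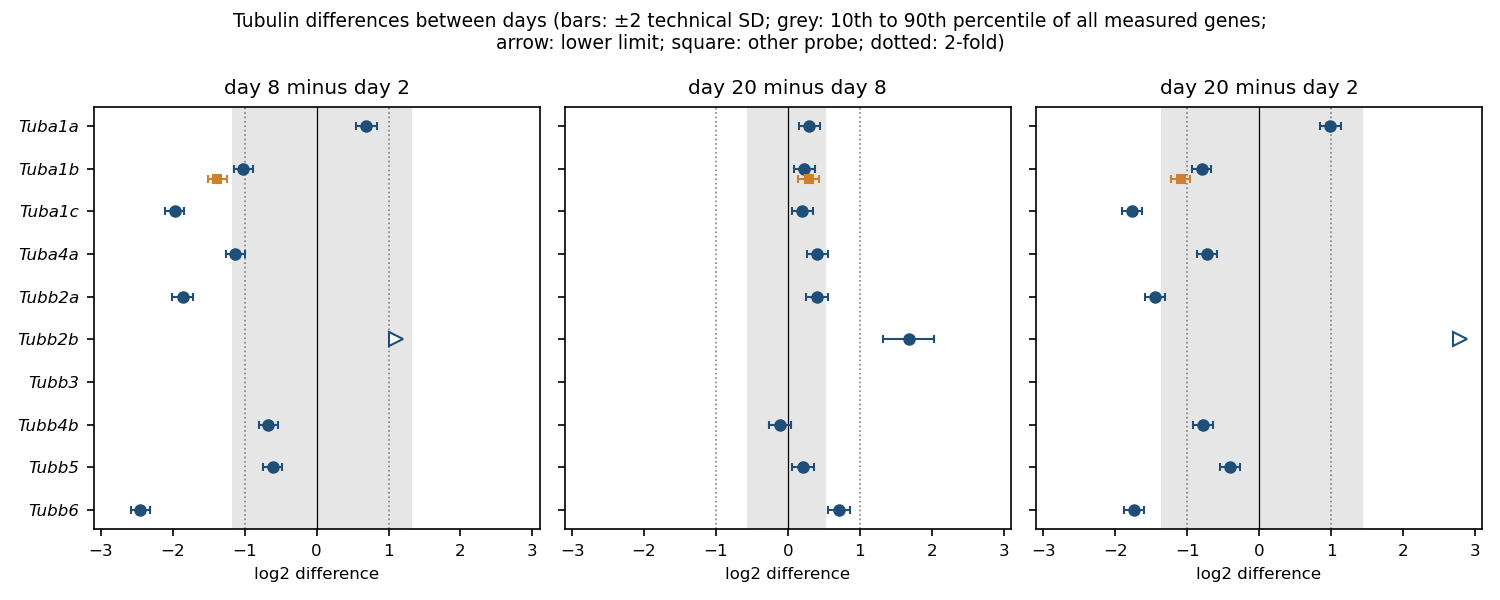
Log2 differences of the tubulins in the 3 comparisons, with bars of ±2 technical SD. The grey band runs from the 10th to the 90th percentile of all measured genes, dotted lines mark 2-fold, squares the other Tuba1b probe and arrows the lower limits for Tubb2b. Between days 8 and 2 (band -1.17 to 1.31), Tuba1c, Tubb2a, Tubb6 and the other Tuba1b probe (-1.38) lie to the left of the band. Between days 20 and 8 (band -0.56 to 0.52), Tubb2b and Tubb6 lie to the right of it.

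On day 20 compared with day 8, 8 of the 9 measured members had a positive difference and 1 a negative one. The median was 0.30, beside -0.05 for all measured genes. By the 2-fold count 1 member, Tubb2b, was higher on day 20 and 0 were lower, while 3.58% of the 12321 measured genes were higher and 1.74% lower by that size. Of the others, Tubb6 at 0.71 lay above 93.6% of measured genes, and Tuba4a and Tubb2a, both at 0.41, above 86.6% and 86.5%. The size of these values rests on the scaling: with the arrays scaled on spike-in probes the member median was 0.97 and that of all genes 0.62, and 4 members passed 2-fold (Tubb2b, Tubb6, Tuba4a and Tubb2a).

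Over the whole course, 3 of 8 measured members were lower by 2-fold or more on day 20 than on day 2 (Tuba1c, Tubb6 and Tubb2a) and 0 were higher by as much, beside 17.0% and 15.5% of the 11889 genes measured on both days. This comparison shares its arrays with the other 2. The member median was -0.79, beside -0.14 for all measured genes. Tuba1b (-0.80), Tubb4b (-0.78) and Tuba4a (-0.72) were under 2-fold, though the other Tuba1b probe was past it at -1.09 (technical SD 0.068). With spike-in scaling these 3 genes were at -0.11, -0.09 and -0.03. Tubb5 was at -0.40, a sign that turned in 3 of 10 alternative settings. These were quantile normalization (0.01), cyclic loess (0.08) and spike-in scaling (0.29). The 2-fold call of Tubb2a was lost with spike-in scaling, at -0.76.

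**Figure D3:**
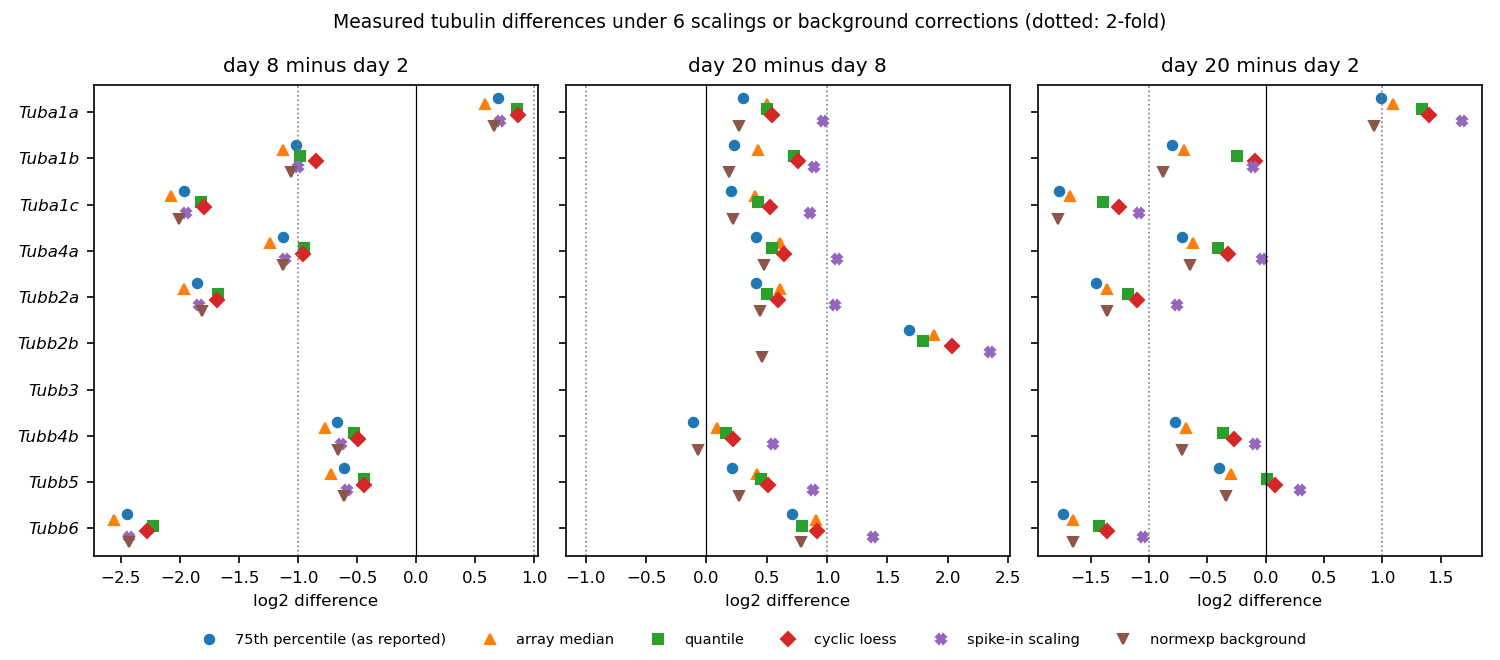
Log2 differences of the measured tubulins under the reported scaling, 4 other scalings and another background correction. Each marker is 1 setting, and dotted lines mark 2-fold. Between days 8 and 2 each gene's markers stay on 1 side of 0, whereas spike-in scaling moves all members to the right in both comparisons with day 20, and Tubb4b (days 20 and 8) and Tubb5 (days 20 and 2) cross 0.

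Proliferation markers were also lower on day 8, and are given beside the tubulins because dividing cells build spindles from tubulin. Of 15 such genes, 14 were well above background on each array, all but Aurkb. Their log2 summed level was 7.83 on day 2, 4.07 on day 8 and 4.44 on day 20. All 14 were at least 2-fold lower on day 8 than on day 2, with a median of -4.83, and on day 20 they had a median of 0.72 above day 8, with Ccna2 (1.29), Mki67 (1.05) and Top2a (1.03) past 2-fold. With spike-in scaling that median was 1.38 and 11 genes were past 2-fold. Rrm2 (-5.66), Aurka (-5.33), Bub1 (-5.23) and Ccnb1 (-5.23) had the largest differences between days 8 and 2. The part of dividing cells in the tubulin values was not tested.

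Genes of the remaining tubulin machinery were read from lists chosen with earlier results of these data known. For all list counts, the shares of all measured genes at least 2-fold lower and higher serve as the comparison. These were 12.9% and 13.8% between days 8 and 2, 1.74% and 3.58% between days 20 and 8, and 17.0% and 15.5% between days 20 and 2. Of 10 other tubulins, 7 were measured on days 8 and 2, with 1 at least 2-fold lower and 0 higher. That gene was Tubg1, the gamma tubulin of the nucleating ring, at -1.08, while its paralogue Tubg2 was at 0.58. Tubb4a, the brain class of beta tubulin, was at -0.66. The alpha tubulins Tuba3b and Tuba8, both with dim probes, were at 0.52 and 0.10 (technical SD 0.211 each). Tubd1 and Tube1 were at -0.68 and -0.78. Tuba3a, Tubal3 and Tubb1 were not well above background on any array. On day 20 against day 8, 0 of the 7 passed 2-fold, and Tuba3b had the largest difference, at -0.74.

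New tubulin is folded by prefoldin, the cytosolic chaperonin and then the tubulin cofactors, and all 22 genes listed for this route were measured on every array. On day 8, 8 were at least 2-fold lower than on day 2 and 1 was higher, with a median of -0.75. The prefoldin genes Vbp1 (-1.75) and Pfdn4 (-1.59) and the chaperonin gene Cct3 (-1.54) led the lower side. Arl2, a small GTPase that works with the cofactors, was the higher gene, at 1.17. On day 20 the median difference of the list from day 8 was -0.23, 0 genes passed 2-fold, and 11 were at least 2-fold lower than on day 2. Spike-in scaling turned the day 20 minus day 8 median to 0.43 and left 4 of the 11. Ttc5, the factor that recognises nascent tubulin chains in autoregulation, was at -0.27 and then -0.09.

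Enzymes that modify tubulin gave a spread without a common direction. Of 15 measured on days 8 and 2, 2 were at least 2-fold lower and 1 higher, with a median of -0.25. Of all genes measured on those days, 12.9% were lower and 13.8% higher, so neither count stands apart. The glutamylase genes Ttll4 and Ttll11 were at -1.87 and -1.81. Atat1, the acetyltransferase of alpha tubulin, was at 1.41, and the deacetylase genes Sirt2 and Hdac6 were at 0.95 and 0.54. On day 20 Sirt2 was 1.14 above day 2, and Ttll4 (-2.03), Ttll11 (-1.48) and the deglutamylase gene Agtpbp1 (-1.24) were at least 2-fold below it. Spike-in scaling turned that balance to 4 higher and 1 lower, and the list's median from day 2 to day 20 was then 0.53 in place of -0.16. From day 8 to day 20, 0 of 16 passed 2-fold, with Ttll3 the farthest from 0 at -0.69.

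Among proteins that bind and stabilise microtubules, 16 were measured on days 8 and 2. At least 2-fold higher were 2, Map1a (1.49) and the end-binding gene Mapre2 (1.07), and 1 was lower, the plus-end gene Clip2 (-1.42). These counts do not stand apart from the shares of all genes measured on those days, 13.8% higher and 12.9% lower. On day 20, 2 of 15 were at least 2-fold above day 8, Map2 (1.98) and Map1a (1.21), and 5 were at least 2-fold above day 2, led by Map1a (2.70), Dclk1 (1.82) and Mapre2 (1.61), with Clip2 at -1.25. The list's median between days 20 and 8 was 0.41. With spike-in scaling it was 1.08, and 10 genes were past 2-fold above day 8 and 8 above day 2. Map2 is a dim probe, at levels of -4.87, -5.69 and -3.71 on days 2, 8 and 20, and is also in the neuron list.

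Of 10 measured depolymerising and severing proteins, 4 were at least 2-fold lower on day 8 than on day 2 and 0 higher, with a median of -0.90. The mitotic kinesins Kif2c (-3.92) and Kif18a (-3.25) and stathmin, Stmn1 (-3.09), which sequesters tubulin dimers, led it. By day 20, 6 were at least 2-fold below day 2, with Kif18a at -3.18, Kif2c at -3.04 and Stmn1 at -2.89. From day 8 to day 20, 0 passed 2-fold, and Kif2c had the largest difference, at 0.88, while spike-in scaling put 2 past it.

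Nucleation genes had 4 of 14 at least 2-fold lower on day 8 than on day 2 and 0 higher, with a median of -0.79. Tpx2, a spindle assembly factor, was at -4.08, the pericentrin gene Pcnt at -1.55 and the augmin subunit Haus1 at -1.35. On day 20 Tpx2 was 1.05 above day 8, the 1 gene of the list past 2-fold, and 5 genes were at least 2-fold below day 2, with Tpx2 (-3.03), Haus1 (-1.88) and Pcnt (-1.65) the largest. With spike-in scaling 3 genes were past 2-fold above day 8, and against day 2 there were 2 lower and 1 higher, with a median of -0.09 in place of -0.78.

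As another cytoskeletal system, 10 actin genes were set beside the tubulins. Their median between days 8 and 2 was -0.06, the same as that of all measured genes, with 0 at least 2-fold lower and 2 higher, Acta2, smooth muscle actin (5.65), and Tmsb4x, thymosin beta 4 (1.52). Actb, the common cytoplasmic actin, was at -0.03 and then 0.10. The median turned to 0.06 with quantile normalization and 0.12 with cyclic loess. On day 20, 1 was at least 2-fold higher than on day 8, Acta2 at 1.82.

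**Figure D4:**
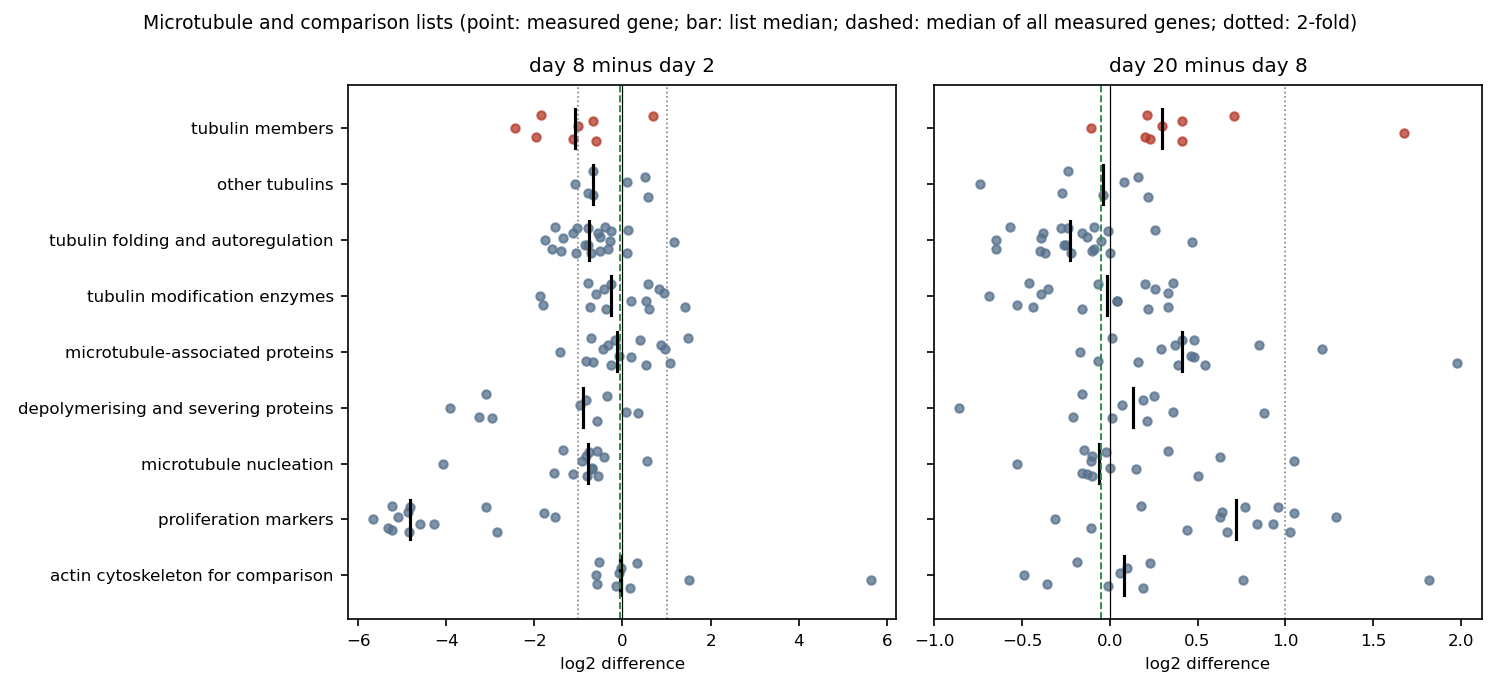
Log2 differences of the tubulins (top row, red) and of microtubule, proliferation and actin lists (blue) between days 8 and 2 and between days 20 and 8. Each point is a measured gene, black bars are list medians, the dashed line is the median of all measured genes and dotted lines mark 2-fold. On the left the tubulin bar stands at -1.08 and that of proliferation markers at -4.83. On the right the tubulin bar is at 0.30 and that of the folding genes at -0.23.

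Other marker lists place the samples. Adipocyte markers had medians of 0.99 between days 8 and 2 and -0.29 between days 20 and 8, with 5 and 0 of 10 at least 2-fold higher and 0 lower in either, and the second median turned positive with quantile normalization (0.11), cyclic loess (0.15) and spike-in scaling (0.37). Cfd (6.46), Adipoq (3.83) and Slc2a4 (3.42) led the first. Preadipocyte and fibroblast markers, all 10 well above background on every array, had medians of 0.62 and 0.74. On day 8, Lum (2.71), Pdgfrb (2.53) and Dcn (1.86) were at least 2-fold above day 2 and S100a4 (-2.07) below it. Thy1 and Dlk1, at -0.68 and -0.46 in that comparison, were at 1.81 and 1.47 on day 20 against day 8, the 2 genes past 2-fold, which numbered 8 with spike-in scaling. Of all 20144 named genes, 12491 to 12837 were well above background, depending on the day. Of 7 macrophage markers with a probe, 3 were well above it on each array, while Adgre1, Ptprc, Mrc1 and Lyz2 were not. Their log2 summed levels were 3.17, 3.52 and 2.64 on days 2, 8 and 20, with Cd14 2.96 higher on day 8 than on day 2 and Itgam at -1.13 between days 20 and 8. The part of other cell types in the tubulin values was not tested.

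The genes whose 2 successive differences lay closest to those of a tubulin were looked up among 11810 genes measured on all 3 arrays, by Euclidean distance. For Tuba1c, the member with the largest difference between days 20 and 2 among those measured on every array, these were Rangap1 (distance 0.018), Hoxb2 (0.03), Cask (0.072), Esyt2 (0.073) and H3c14 (0.101), and 4 genes lay within 0.1. For Tuba1b, the member with the brightest probe, they were Champ1, Pla2g12a, Zfp933, Ttc37 and B4galt3, at distances of 0.025 to 0.028, and 50 genes lay within 0.1. With 3 arrays such likeness rests on 2 numbers per gene.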

How the data were processed

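Each deposited scanner file holds the spot intensity values of 1 array. The submitters' processing notes name Agilent Feature Extraction 10.7.1.1. Per the file headers, the processed intensity is a background-corrected signal that was not scaled between arrays. Of the other deposited columns, marks for detection, saturation and outliers were used as yes or no, per the file headers. In the authors' series table the deposited log2 values differed from the scanner values by a fixed shift on each array (39427 of 39429 probes within 0.01), and served as an alternative.

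Outlier and control spots were left out, spots of a probe were averaged on the log2 scale, and the 75th percentile of non-control probes was subtracted on each array. Probes were named by RefSeq accession through a GRCm38.p6 gene table (26581 named, 12848 not). The array design is annotated on mm9, so no gene coordinates are given from the files. A gene took its brightest probe over the 3 arrays. Technical SDs came from 238 or 239 probes per array printed 10 times, with at least 8 usable spots, in 8 bins of signal. Their median per array was 0.049, 0.054 and 0.056 for days 2, 8 and 20. The number of arrays limits the precision. Counting at 2-fold was run on simulated data with planted changes well above 2-fold and technical noise alone. That run cannot show how the counting does near 2-fold or with spread between cultures. Normalizations used limma 3.58.1 in R 4.3.3, and the rest Python 3.11.15 with pandas 2.3.3. The files hold no mean spot signal, so normexp (offset 50) used the median signal.

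Members and the 12 gene lists were chosen with earlier results of these data known. The genes named were all members, and were drawn from up to 3 genes past 2-fold in each direction per list and comparison (or the farthest from 0), and the 5 closest patterns. Some further list members were named after their values were seen. They were Tubg2, Tubb4a, Tuba8, Tubd1, Tube1, Ttc5, Sirt2, Hdac6, Actb, Pparg, Syp, Elavl3, Elavl4, Dcx and Nefh, and listed genes not well above background.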

Additional observations from a re-analysis of the deposited data

How the results depend on the processing

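The members' differences, medians and 2-fold counts were recomputed under 9 other settings and 1 more chosen after seeing the data (the 75th percentile over single spots, which changed 0 counts of members), and the counts also at 1.5-fold. Contrasts between members were recomputed in the same settings, also after seeing the data. List medians were recomputed under 5 of them and list counts with spike-in scaling, while marker levels and closest patterns were not recomputed. No paired analysis was possible because each day has 1 array, and there was no replicate to leave out. Of the members' differences in all alternatives, 0 of those past 2-fold changed sign, though some fell under 2-fold. Several alternatives left the scaling of the arrays nearly as reported and could hardly turn a sign. The cause of the shifts below was not tested.

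The member median between days 8 and 2 (reported -1.08) was -1.18 with array medians, -0.97 with quantile normalization, -0.90 with cyclic loess, -1.17 with the mean of all probes and -0.85 without a filter on dim probes, where 10 members enter. Between days 20 and 8 (0.30) it was 0.50 with array medians, 0.50 with quantiles, 0.59 with cyclic loess and 0.97 when scaled on spike-ins. Between days 20 and 2 (-0.79) it was -0.69, -0.39, -0.30 and -0.10 in the same 4 settings and -0.86 with the mean of all probes. Spike-in scaling put the median of all genes at 0.62 between days 20 and 8 and 0.54 between days 20 and 2, against -0.05 and -0.14 as reported.

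Members at least 2-fold lower on day 8 than on day 2 numbered 3 with quantile normalization and 3 with cyclic loess, against 5. Members higher on day 20 than on day 8 numbered 4 with spike-in scaling, 0 with normexp and 2 at 1.5-fold, against 1. Higher on day 20 than on day 2 was 1 member, Tuba1a, with array medians, quantiles, cyclic loess, spike-ins and at 1.5-fold, and 1, Tubb2b, without the filter. Between days 8 and 2, 1 was higher without the filter (Tubb2b) and 1 at 1.5-fold (Tuba1a). At 1.5-fold, 6 members were lower on day 20 than on day 2.

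Counts over all genes between days 20 and 8, 441 higher and 214 lower as reported, were 2091 and 21 with spike-in scaling, 206 and 100 with normexp, 694 and 1315 without the filter, 1039 and 1101 at 1.5-fold, 642 and 123 with array medians and 611 and 129 with cyclic loess. Between days 20 and 2 (1841 and 2017) they were 3807 and 703 with spike-in scaling, 2438 and 1318 with cyclic loess, 2582 and 3212 without the filter and 2852 and 3699 at 1.5-fold. Between days 8 and 2 (1666 and 1555) they were 2616 and 2107 without the filter and 2716 and 3047 at 1.5-fold. Signal over background limits Tubb2b and Tubb3, and the other 8 members lay at least 267 times above the lowest signal well above background.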
